A study of Mus musculus with 4 samples.

Results

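Genomic imprinting silences 1 parental copy of a gene, so that RNA comes from the maternal or the paternal chromosome alone. The marks are set on DNA in the germ line at imprinting control regions and are kept by DNA methylation, by histone methylation at H3K9 and by long noncoding RNAs. KDM3B is a histone demethylase that removes methyl groups from H3K9, and the question here was whether a lower dose of *Kdm3b* moved the RNA of imprinted genes in the cerebellum. The tables give the sum of both alleles of a gene and hold no information on which parent the RNA came from.

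The 10 genes were chosen by name as imprinted genes of 4 chromosomal domains. The rule held no value, but the choice was made with earlier results of these data known. All 10 were found among the 24532 gene identifiers of the tables. *Meg3*, *Rian*, *Mirg* and *Dlk1* share a domain on chromosome 12. *Snrpn*, *Ndn*, *Magel2* and *Ube3a* share the Prader-Willi and Angelman domain on chromosome 7. *Peg3* lies elsewhere on chromosome 7 and *Grb10* on chromosome 11. Of the 10, 8 had a mean TPM of at least 1 and were tested, and *Dlk1* and *Magel2* did not reach that level. TPM is a transcript level per unit of length, with the levels of a library adding up to 1000000.

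RNA came from granule-cell-enriched (GCE) tissue cut by hand from slices of the cerebellar vermis, with 1 library per mouse. The groups were 2 WT mice and 2 *Kdm3b*+/- mice, all adult males older than 7 weeks, and WT mice were littermates. The mutant allele carries the gene trap pGT0lxf between exons 12 and 13 of *Kdm3b* and came from a single ES cell line, YTC406, and the line had been crossed to C57Bl/6J for 3 to 4 generations after C57Bl/6N. The labels name the tissue only as cerebellum. Each library held between 4.92 and 6.69 aligned gigabases.

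The labels were first set against the data. *Kdm3b* itself was listed at 9.10 and 11 TPM in the WT mice and at 8.30 and 7.90 TPM in the *Kdm3b*+/- mice, which was lower in both, with a log2 fold change of -0.27 ± 0.17 (SE) and an adjusted p of 0.424 by limma. All 12 granule cell markers were measured, and *Gabra6*, a GABA receptor subunit of granule cells, lay between 984 and 1200 TPM. Markers of Purkinje cells were present as well, with a summed TPM of 1690 and 777 in WT mice, against 966 and 794 in *Kdm3b*+/- mice, so WT mouse 1 stood apart. Of the 13 Purkinje markers 11 were tested, 0 were differentially expressed (DEX), the call given here to a gene that differed by more than 1.2-fold at an adjusted p below 0.05 in the limma test, 3 had an unadjusted p under 0.05, and 5 were lower in both *Kdm3b*+/- mice. Over all 13652 genes tested, 0.461% were DEX, 17.0% had an unadjusted p under 0.05, and in 51.3% the groups did not overlap. Meningeal fibroblast markers summed to 69.9 and 63.7 TPM in WT mice, against 40.1 and 43.5 TPM in *Kdm3b*+/- mice. Of these, 7 were tested and 1 was DEX, *Fmod*, which fell by 2.10 ± 0.17 on the log2 scale. An unadjusted p under 0.05 was found for 5 of the 7, of which 4 were lower and 1 higher. The higher one was *Lum*, at 0.95 ± 0.20. Of 10 astrocyte and Bergmann glia markers 2 were DEX. *Aqp4*, a water channel, rose by 1.10 ± 0.17 and *Fabp7*, a fatty acid binding protein, by 1.49 ± 0.18 on the log2 scale. Markers of this list moved both ways: 6 had an unadjusted p under 0.05, of which 3 were higher and 3 lower. The 3 lower ones were *Gdf10* at -1.03 ± 0.28, *Aldh1l1* at -0.69 ± 0.16 and *Slc1a3* at -0.47 ± 0.16. Of 8 oligodendrocyte markers 1 was DEX, the myelin gene *Mobp*, which fell by 0.93 ± 0.11 on the log2 scale. Their part in the results below was not tested. *Dbh* and *Slc6a2*, an enzyme and a transporter of noradrenergic neurons, were listed at 12.8 and 2.08 TPM in *Kdm3b*+/- mouse 2 and at no more than 0.234 TPM in the other libraries. In bulk tissue, fewer cells of a type and less RNA per cell cannot be told apart.

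The sequences that the chromosome 12 results turn on are shown first. *Rian* is a long noncoding RNA whose introns hold tandem copies of C/D box small nucleolar RNAs (snoRNAs), and *Mirg* hosts a cluster of microRNAs (miRNAs). The 5 snoRNAs inside *Rian* whose annotated start in the GENCODE annotation of GRCm38 was that of a gene model in the tables are given as DNA, with the first TGATGA (C box) and the last CTGA (D box) in capitals, as found by a search for these letters on the sense strand.

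AF357425: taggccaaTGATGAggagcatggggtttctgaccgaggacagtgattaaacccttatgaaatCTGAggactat
DQ267100: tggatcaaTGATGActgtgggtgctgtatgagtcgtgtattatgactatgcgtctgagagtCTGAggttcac
DQ267101: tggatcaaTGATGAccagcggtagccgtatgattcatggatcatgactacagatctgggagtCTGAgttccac
AF357355: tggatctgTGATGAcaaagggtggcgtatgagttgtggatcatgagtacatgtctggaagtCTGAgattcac
DQ267102: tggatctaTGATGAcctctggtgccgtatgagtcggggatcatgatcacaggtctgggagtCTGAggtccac

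DQ267100, DQ267101, AF357355 and DQ267102 are related copies, and pairs of them were between 76.4% and 83.6% identical over their aligned length. DQ267101 was closest to DQ267102, at 83.6%. AF357355 carries the name Gm26922 in GENCODE. AF357425 was less than 60% like any of them, the highest value being 59.5%. In the tables DQ267101 lies at chr12:109651424-109651495 on the plus strand, 72 bases, 1 base shorter than the GENCODE model of 73.

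Of 14 miRNA precursor models inside *Meg3*, *Rian* or *Mirg*, 6 had a mean TPM of at least 1, and all 6 lie in *Mirg*. Their 11 mature miRNAs are given from RefSeq on GRCm38, with the seed, bases 2 to 8 from the 5′ end, in capitals, since the seed sets which messages a miRNA pairs with.

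mmu-miR-453: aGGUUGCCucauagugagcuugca
mmu-miR-377-5p: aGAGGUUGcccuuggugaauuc
mmu-miR-377-3p: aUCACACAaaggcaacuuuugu
mmu-miR-412-5p: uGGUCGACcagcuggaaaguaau
mmu-miR-412-3p: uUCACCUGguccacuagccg
mmu-miR-369-5p: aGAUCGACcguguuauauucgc
mmu-miR-369-3p: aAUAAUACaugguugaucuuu
mmu-miR-410-5p: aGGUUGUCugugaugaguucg
mmu-miR-410-3p: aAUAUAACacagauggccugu
mmu-miR-3072-5p: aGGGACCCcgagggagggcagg
mmu-miR-3072-3p: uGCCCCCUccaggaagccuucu

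The 11 seeds are all different, so none of these 11 shares its seed with another of them. Some of the seeds, such as that of miR-410-3p, are also those of other mature miRNAs in RefSeq. A short precursor model in a table of long RNA measures reads over those bases of the host or precursor, not the mature miRNA.

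In the level of RNA, the 10 genes spanned from *Snrpn*, which codes for a spliceosomal protein of neurons and had a mean of 1412 TPM over the 4 libraries, to *Magel2* at 0.0485 TPM. In between came *Ndn* at 635, *Meg3* at 252, *Ube3a* at 57, *Peg3* at 26.7, *Mirg* at 10.8, *Rian* at 8.73, *Grb10* at 5.60 and *Dlk1* at 0.249 TPM. Only 0.461% of the tested genes had a higher mean TPM than *Snrpn*, 1.51% a higher one than *Ndn* and 5.42% a higher one than *Meg3*. Neighbours in this order that overlapped over their 4 libraries were *Mirg* and *Rian*, *Rian* and *Grb10*, and *Dlk1* and *Magel2*, and the ranges of the other neighbours were separate.

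**Figure D1:**
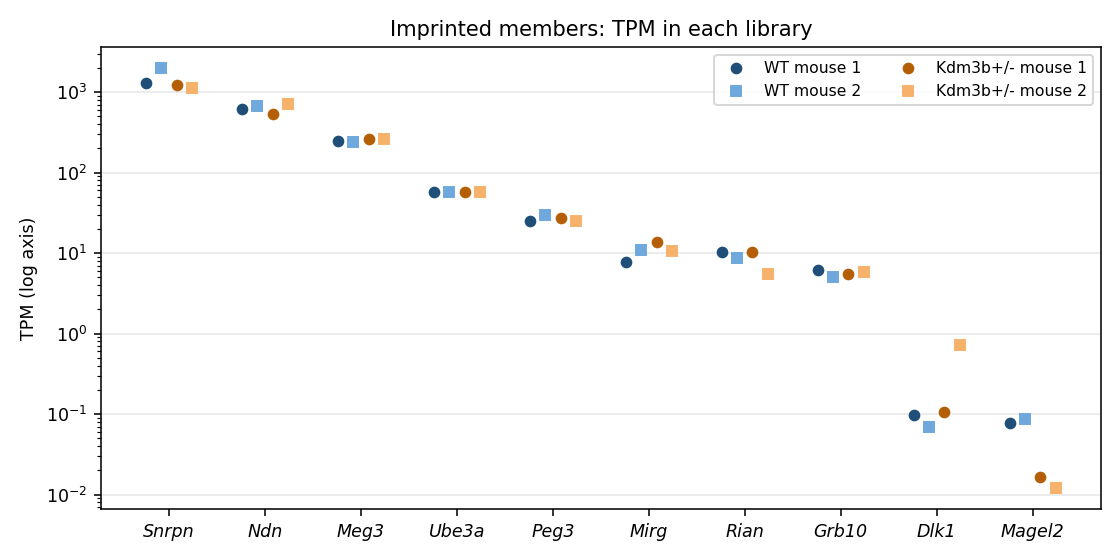
TPM of the 10 imprinted genes in each of the 4 libraries, on a log axis, in the order of their mean; blue marks are WT mice and orange marks *Kdm3b*+/- mice, circles mouse 1 and squares mouse 2. *Ube3a* lies between 56.6 and 57.5 TPM in all 4, *Snrpn* is highest in WT mouse 2 at 1971 TPM, and *Dlk1* is highest in *Kdm3b*+/- mouse 2 alone at 0.724 TPM.

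None of the 8 tested genes was DEX, against 0.461% of all tested genes. At an unadjusted p under 0.05 there was 1 of 8, *Snrpn*, against 17.0% of all tested genes. In 2 of 8, *Meg3* and *Snrpn*, both *Kdm3b*+/- mice lay outside the range of both WT mice, against 51.3% of all tested genes. The median log2 fold change of the 8 was -0.03, and that of all tested genes was -0.07. With 2 mice against 2, an exact permutation test of 1 gene cannot give a two-sided p below 0.333, so the p-values of limma borrow the spread of other genes.

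**Figure D2:**
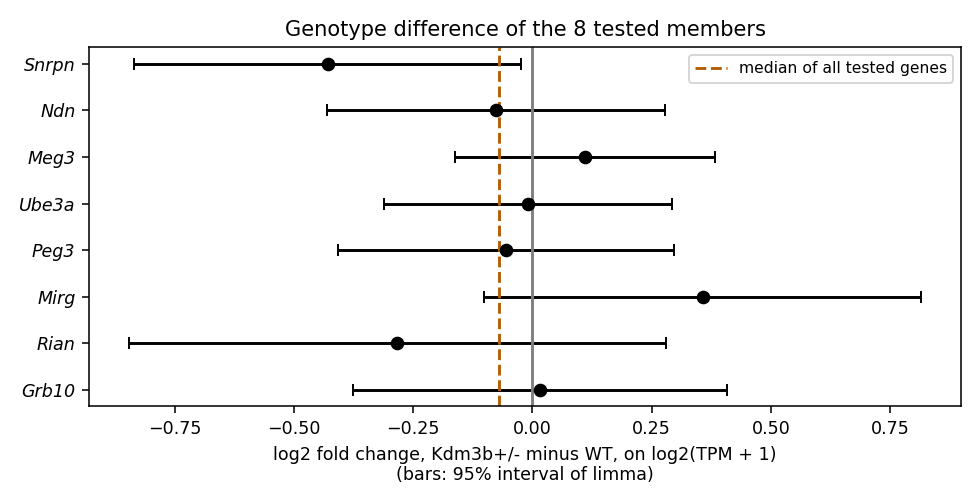
Log2 fold change of the 8 tested genes, *Kdm3b*+/- minus WT on the log2(TPM + 1) scale, with the 95% interval of limma as bars and the median of all tested genes as a dashed line. The interval of *Snrpn* runs from -0.83 to -0.02 and those of the other genes include 0.

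*Meg3*, a long noncoding RNA from the maternal chromosome that is abundant in neurons, lies at chr12:109540996-109571729 on the plus strand. It was listed at 248 and 237 TPM in the WT mice and at 263 and 261 TPM in the *Kdm3b*+/- mice. Both *Kdm3b*+/- values were above both WT values, by a small margin. The log2 fold change was 0.11 ± 0.12 (SE), with an adjusted p of 0.663, and its 95% interval spanned a fold of 0.894 to 1.30.

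*Rian*, at chr12:109603945-109661711, was listed at 10.5 and 8.59 TPM in the WT mice and at 10.3 and 5.57 TPM in the *Kdm3b*+/- mice. Only *Kdm3b*+/- mouse 2 was below the WT range. The log2 fold change of -0.28 ± 0.25 (adjusted p = 0.584, limma) became 0.11 when that mouse was left out. *Mirg*, at chr12:109734981-109749457, was listed at 7.74 and 11 TPM in the WT mice and at 13.7 and 10.7 TPM in the *Kdm3b*+/- mice, so the groups overlapped. Its log2 fold change was 0.36 ± 0.20, with an adjusted p of 0.393 by limma, and 0.13 without WT mouse 1.

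*Meg3*, *Rian* and *Mirg* are transcribed in the same direction from the maternal chromosome and are often taken as parts of 1 long unit. Summed, they were at 266 and 257 TPM in the WT mice and at 287 and 277 TPM in the *Kdm3b*+/- mice, and *Meg3* held between 91.6% and 94.1% of that sum in each library. The log2 fold change of the sum was 0.11 ± 0.12, with an adjusted p of 0.668 by limma. Within a library, *Meg3* was 23.7 and 27.6 times as high as *Rian* in the WT mice, and 25.6 and 46.8 times in the *Kdm3b*+/- mice. *Meg3* was 32.0 and 21.6 times as high as *Mirg* in the WT mice, and 19.2 and 24.3 times in the *Kdm3b*+/- mice. Between genotypes the log2 ratio of *Rian* to *Meg3* differed by -0.44 and that of *Mirg* to *Meg3* by 0.28, each with an exact two-sided permutation p of 0.667.

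The short gene models inside *Rian* and *Mirg* gave the only DEX call within 500 kb of the 10 genes. The snoRNA DQ267101, shown above, was listed at 3.19 and 2.72 TPM in the WT mice and at 0.163 and 0.622 TPM in the *Kdm3b*+/- mice. Both *Kdm3b*+/- values were below 1 TPM and both WT values were above 2 TPM. The mean was 2.96 TPM in the WT mice and 0.392 TPM in the *Kdm3b*+/- mice, so the model reached the level for testing only through the WT mice. The level of the DQ267101 model fell by 1.52 ± 0.22 on the log2(TPM + 1) scale, with an adjusted p of 0.0293 by limma. Whether the reads over these bases came from the snoRNA or from its host *Rian* was not tested. The model spans 72 bases, and coverage multiplied by that length came to 510 and 484 aligned bases in WT mice, against 31 and 137 in the *Kdm3b*+/- mice. The call was lost without WT mouse 1 (log2 fold change -1.44, adjusted p = 0.0867) and without WT mouse 2 (-1.61, adjusted p = 0.118), and reads that match several of the related copies could have been divided between them.

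The other tested short models inside *Rian* did not pass. AF357355 was listed at 2.84 and 4.10 TPM in the WT mice and at 2.19 and 2.06 TPM in the *Kdm3b*+/- mice, with a log2 fold change of -0.50 ± 0.20 and an adjusted p of 0.262. AF357425 lay between 9.29 and 13.5 TPM and AF357359 between 4.37 and 8.20 TPM, and their groups overlapped. DQ267100 and DQ267102, the copies most like DQ267101 in sequence along with AF357355, had means of 0.990 and 0.374 TPM and were not tested.

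In *Mirg*, 4 of the 6 tested precursor models were higher in both *Kdm3b*+/- mice than in both WT mice, none was lower in both, and 0 of 6 were DEX. Of the 4, Mir453 had a mean of 0.910 TPM in the WT mice and 1.63 TPM in the *Kdm3b*+/- mice. It reached the level for testing only through the *Kdm3b*+/- mice. The share without overlap among all tested genes, 51.3%, is close to that of the 6 models. Mir369, the precursor of miR-369-5p and miR-369-3p, was listed at 1.25 and 0.894 TPM in the WT mice and at 3.06 and 3.0 TPM in the *Kdm3b*+/- mice, with a log2 fold change of 0.96 ± 0.19 and an adjusted p of 0.0944. Mir3072 was listed at 5.15 and 3.31 TPM in the WT mice and at 13.2 and 6.71 TPM in the *Kdm3b*+/- mice, with a log2 fold change of 1.02 ± 0.29 and an adjusted p of 0.169. Leaving out 1 library moved that fold change from 0.58 without *Kdm3b*+/- mouse 1 to 1.46 without *Kdm3b*+/- mouse 2. Mir410 was listed at 5.76 and 12.4 TPM in the WT mice and at 17.2 and 11.8 TPM in the *Kdm3b*+/- mice, so WT mouse 1 was lowest and *Kdm3b*+/- mouse 1 highest, the same order of extremes as in *Mirg* itself. Mir453 and Mir377 also did not overlap between groups, with log2 fold changes of 0.47 ± 0.21 and 0.27 ± 0.19, and Mir412 overlapped, at 0.36 ± 0.34. These models all lie within the span of *Mirg*, and whether they share reads with it or with each other was not tested.

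**Figure D3:**
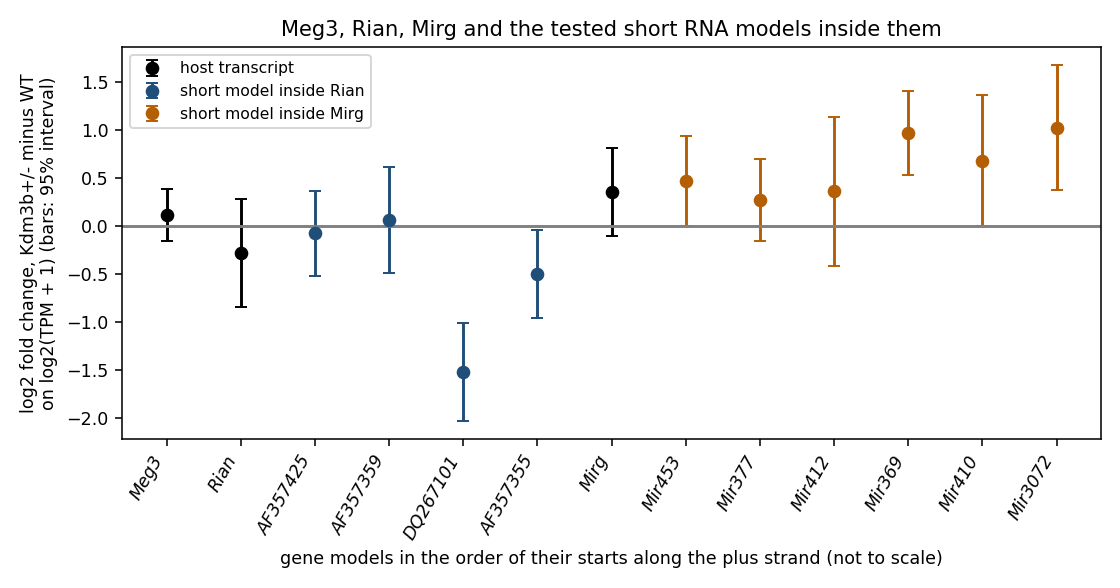
Log2 fold change, *Kdm3b*+/- minus WT on the log2(TPM + 1) scale, of *Meg3*, *Rian*, *Mirg* and the 10 tested short gene models inside *Rian* and *Mirg*, in the order of their starts and not to scale, with 95% intervals of limma. DQ267101 is at -1.52, and the 6 models inside *Mirg* lie between 0.27 and 1.02.

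*Dlk1*, a transmembrane protein that is expressed from the paternal chromosome at the other end of the domain, was nearly absent, at 0.0967 and 0.0699 TPM in the WT mice and at 0.105 and 0.724 TPM in the *Kdm3b*+/- mice. Its mean depth over the exons was 0.209, 0.168 and 0.271 reads in the first 3 of these libraries and 1.97 reads in *Kdm3b*+/- mouse 2. That mouse was the only one above 0.105 TPM, and it is the library with *Dbh* at 12.8 TPM. Of the 7 markers of hindbrain monoamine neurons, 3 were tested and 0 were DEX, against 0.461% of all tested genes. An unadjusted p under 0.05 by limma was found for 2 of the 3, against 17.0% of all tested genes. These were *Dbh* and *Slc18a2*, both higher in the *Kdm3b*+/- mice, and *Dbh* reached the level for testing only through *Kdm3b*+/- mouse 2. The summed TPM of the 7 was 16.4 and 10.8 in WT mice, against 13.9 and 39.9 in *Kdm3b*+/- mice. *Slc6a4*, the serotonin transporter, was listed at 0 in all 4 libraries. The part of such cells in the *Dlk1* value was not tested. *Rtl1* and *Dio3*, the other paternally expressed protein-coding genes of the domain, were also under 1 TPM in every library.

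In the Prader-Willi and Angelman domain, *Snrpn* gave the largest difference in TPM. It lies at chr7:59982495-60450177 on the minus strand and was listed at 1298 and 1971 TPM in the WT mice and at 1242 and 1136 TPM in the *Kdm3b*+/- mice. WT mouse 2 stood apart from the other 3 libraries, which spanned 1136 to 1298 TPM. The log2 fold change was -0.43 ± 0.18 (SE), with an unadjusted p of 0.0403 and an adjusted p of 0.272 by limma. It was -0.13 without WT mouse 2 and -0.73 without WT mouse 1.

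*Snurf*, a short reading frame on the same transcripts as *Snrpn*, and *Snhg14*, the long host transcript that runs on from *Snrpn* over the snoRNA clusters and antisense to *Ube3a*, are modelled on the same strand and overlap it. *Snurf* was listed at 233 and 469 TPM in the WT mice and at 295 and 269 TPM in the *Kdm3b*+/- mice. *Snhg14* was listed at 102 and 21.5 TPM in the WT mice and at 104 and 98.2 TPM in the *Kdm3b*+/- mice. WT mouse 2 was thus the highest library for *Snrpn* and *Snurf* and the lowest for *Snhg14*. How reads over the shared span were assigned to the 3 models was not tested. The sum of *Snrpn* and *Snurf* gave -0.40 ± 0.19 on the log2 scale (adjusted p = 0.328), and the sum of all 3, a choice made after seeing the data, of -0.35 ± 0.18 (adjusted p = 0.341). Without WT mouse 2 these sums were at -0.06 and -0.06, and without WT mouse 1 at -0.73 and -0.65. *Snrpn* held between 75.6% and 80.1% of the sum of all 3 in each library.

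**Figure D4:**
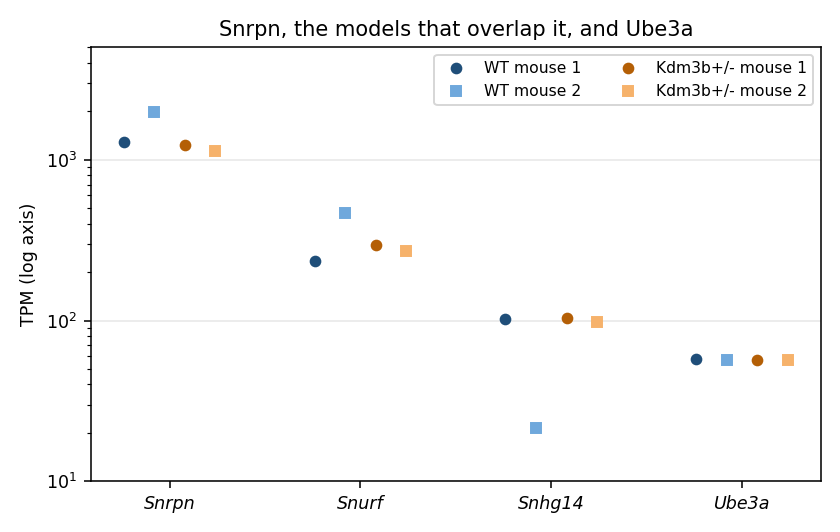
TPM of *Snrpn*, of *Snurf* and *Snhg14*, which overlap it on the same strand, and of *Ube3a* in each library, on a log axis; colours as in the plot of all 10 genes. WT mouse 2 is highest for *Snrpn* at 1971 and *Snurf* at 469 TPM and lowest for *Snhg14* at 21.5 TPM, while *Ube3a* differs little between libraries.

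*Ube3a* codes for a ubiquitin ligase that neurons express from the maternal chromosome, where *Snhg14* is silent. At chr7:59228750-59306727 on the plus strand, it was listed at 57.5 and 56.8 TPM in the WT mice and at 56.6 and 57 TPM in the *Kdm3b*+/- mice. Its 4 values lay between 56.6 and 57.5 TPM, also in WT mouse 2, where *Snhg14* was low. The log2 fold change was -0.01 ± 0.13, with an adjusted p of 0.981, and the 95% interval spanned a fold of 0.807 to 1.23. The tables do not state whether counting used strand, so reads from *Ube3a* and its antisense partner may not have been separated.

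*Ndn* and *Magel2* code for MAGE-family proteins, are single-exon genes read in the same direction and are expressed from the paternal chromosome. *Ndn*, at chr7:62348277-62349927, was listed at 618 and 679 TPM in the WT mice and at 527 and 717 TPM in the *Kdm3b*+/- mice. The lowest and the highest value were both in *Kdm3b*+/- mice, and the log2 fold change was -0.08 ± 0.16 (adjusted p = 0.830, limma). *Magel2*, at chr7:62376979-62381640, was listed at 0.0781 and 0.0876 TPM in the WT mice and at 0.0164 and 0.0120 TPM in the *Kdm3b*+/- mice. Both *Kdm3b*+/- values were lower, and coverage multiplied by the 4662 bases of the model came to only 808 and 1010 aligned bases in WT mice, against 202 and 171 in *Kdm3b*+/- mice, against 2265012 aligned bases or more for *Ndn*. *Magel2* was below the level for testing, so its difference has no test. *Mkrn3*, the next paternally expressed gene along, was listed at 8.35 and 11.3 TPM in the WT mice and at 12.5 and 11.9 TPM in the *Kdm3b*+/- mice.

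The promoters of this neighbouring pair are shown because the genes differ so much in level. Each run is 300 bases of GRCm38 from RefSeq on the plus strand, from 250 bases before the annotated start to 50 after it, with every CG in capitals.

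Ndn, chr7:62348027-62348326: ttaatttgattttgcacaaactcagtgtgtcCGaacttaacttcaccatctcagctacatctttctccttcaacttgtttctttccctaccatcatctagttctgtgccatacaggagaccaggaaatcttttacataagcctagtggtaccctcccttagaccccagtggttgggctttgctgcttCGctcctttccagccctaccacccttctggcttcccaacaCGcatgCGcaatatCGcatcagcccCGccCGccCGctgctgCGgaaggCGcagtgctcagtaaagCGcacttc
Magel2, chr7:62376729-62377028: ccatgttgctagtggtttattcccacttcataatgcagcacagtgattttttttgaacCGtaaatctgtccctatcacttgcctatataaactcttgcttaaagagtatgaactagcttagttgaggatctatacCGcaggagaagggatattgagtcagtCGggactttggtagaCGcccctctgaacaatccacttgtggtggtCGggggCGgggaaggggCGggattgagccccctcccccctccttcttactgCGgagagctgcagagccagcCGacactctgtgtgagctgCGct

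The *Ndn* window held 11 CG and the *Magel2* window 10, both with 51.0% G or C. Over all 32851 promoter windows the median was 7, and 94.6% held at least 1. By the same count, *Grb10* had 45 at 1 of its starts, *Ube3a* 29, *Peg3* 13 and *Meg3* 13 at its first start, while the window of *Rian* held 0. These are counts of letters in the reference and not measurements of methylation.

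*Peg3*, a zinc finger protein expressed from the paternal chromosome, lies at chr7:6705960-6730419 on the minus strand. It was listed at 24.7 and 29.7 TPM in the WT mice and at 27.2 and 25.0 TPM in the *Kdm3b*+/- mice. The groups overlapped, and the log2 fold change was -0.06 ± 0.16, with an adjusted p of 0.884 by limma. *Usp29*, a paternally expressed gene that starts beside *Peg3* in the opposite direction, was listed at 4.21 and 4.23 TPM in the WT mice and at 5.16 and 5.53 TPM in the *Kdm3b*+/- mice, with an adjusted p of 0.419.

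*Grb10*, an adaptor protein of insulin and growth factor receptors that neurons express from the paternal and other tissues from the maternal chromosome, lies at chr11:11930499-12037420 on the minus strand. It was listed at 6.09 and 5.05 TPM in the WT mice and at 5.50 and 5.75 TPM in the *Kdm3b*+/- mice, with a log2 fold change of 0.02 ± 0.17 and an adjusted p of 0.972 by limma. Its neighbour *Ddc*, the decarboxylase of dopamine and serotonin synthesis, was singled out after its values were seen. *Ddc* was listed at 34.8 and 29.6 TPM in the WT mice and at 10.9 and 17.2 TPM in the *Kdm3b*+/- mice, and did not overlap. Its log2 fold change was -1.17 ± 0.21, with an adjusted p of 0.0597, which is just outside the threshold. With 1 library left out the log2 fold change ran from -0.86 without *Kdm3b*+/- mouse 1 (adjusted p = 0.12) to -1.47 without *Kdm3b*+/- mouse 2 (adjusted p = 0.000726), and the adjusted p was 0.0962 without WT mouse 1 and 0.157 without WT mouse 2. *Th*, the enzyme one step before *Ddc*, overlapped between the groups, at 13.2 and 7.24 TPM in the WT mice and 9.54 and 18.1 TPM in the *Kdm3b*+/- mice.

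Around all 10 genes, 125 other gene models lay within 500 kb, of which 36 were tested. These include the 4 tested short models inside *Rian* and the 6 inside *Mirg*, so the counts repeat results given above. Of the 36, 1 was DEX, against 0.461% of all tested genes. An unadjusted p under 0.05 was found for 11, or 30.6%, against 17.0% of all tested genes. In 21 of the 36, or 58.3%, the groups did not overlap, near the 51.3% of all tested genes, with 8 higher and 13 lower in the *Kdm3b*+/- mice. The 1 DEX model was DQ267101.

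The profile of *Meg3* over the 4 libraries was most like those of *Adcy6*, *Tmem33*, *Ahsa1*, *Npm1* and *Dhx15*, by Euclidean distance on centred log2(TPM + 1), with distances from 0.0135 to 0.0221. Among 13651 genes ranked by that distance, *Ube3a* was at place 898, *Grb10* at 1658, *Peg3* at 5192, *Ndn* at 8091, *Mirg* at 9956, *Rian* at 12220 and *Snrpn* at 12444. The order rests on 4 libraries and is a description only.

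Over a wider list of imprinted genes, 38 of 54 were tested, the 8 genes above included, and 0 were DEX by limma. An unadjusted p under 0.05 was found for 11 of the 38 (28.9%, against 17.0% of all tested genes), 3 higher and 8 lower in the *Kdm3b*+/- mice. The groups did not overlap for 23 (60.5%, against 51.3%), 11 higher and 12 lower. Of the genes listed as expressed from the maternal allele (*Grb10* was put there by its use outside neurons), 16 of 22 were tested with a median log2 fold change of -0.03, and of those listed as paternal 22 of 32 with a median of 0.07. The median of all 38 was -0.02.

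The lowest 3 among those without overlap were *Kcnk9*, *Peg13* and *Atp10a*. *Kcnk9*, a potassium channel, was listed at 1.5 and 2.23 TPM in the WT mice and at 0.498 and 0.755 TPM in the *Kdm3b*+/- mice, with a log2 fold change of -0.81 ± 0.22 (adjusted p = 0.154). Its mean was 1.87 TPM in the WT mice and 0.627 TPM in the *Kdm3b*+/- mice, so it reached the level for testing only through the WT mice. *Peg13*, a noncoding RNA inside *Trappc9* and in the same domain as *Kcnk9* on chromosome 15, was listed at 61.1 and 84.5 TPM in the WT mice and at 37.5 and 53.6 TPM in the *Kdm3b*+/- mice, with a log2 fold change of -0.67 ± 0.21 (adjusted p = 0.188). *Trappc9*, named here as the host of *Peg13* after its values were seen, stood at a log2 fold change of -0.45 ± 0.17, with an adjusted p of 0.246 by limma. *Kcnk9*, *Peg13* and *Trappc9* were all lower in both *Kdm3b*+/- mice. They were picked with their values known, so this shared direction follows from the choice. Leaving out 1 library moved *Peg13* from -0.42 without *Kdm3b*+/- mouse 1 to -0.92 without *Kdm3b*+/- mouse 2, and *Trappc9* from -0.23 without WT mouse 2 to -0.68 without WT mouse 1. *Atp10a*, a lipid flippase next to *Ube3a*, stood at a log2 fold change of -0.67 ± 0.24, with an adjusted p of 0.235.

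The highest 3 were *Airn*, *H19* and *Mcts2*. *Airn*, the noncoding RNA antisense to *Igf2r*, was listed at 21.1 and 17.8 TPM in the WT mice and at 28.8 and 28.1 TPM in the *Kdm3b*+/- mice, with a log2 fold change of 0.53 ± 0.15 (adjusted p = 0.174). *Igf2r*, which *Airn* silences on the paternal chromosome outside the brain, lay between 5.42 and 6.24 TPM in all 4 libraries. *H19*, a noncoding RNA, stood at a log2 fold change of 0.49 ± 0.22, with an adjusted p of 0.306 from levels of at most 1.83 TPM. Its mean was 0.715 TPM in the WT mice and 1.44 TPM in the *Kdm3b*+/- mice, so it reached the level for testing only through the *Kdm3b*+/- mice. *Mcts2*, an intronless copy of a translation factor gene, was listed at 16.7 and 16.3 TPM in the WT mice and at 21.7 and 23.7 TPM in the *Kdm3b*+/- mice, with a log2 fold change of 0.44 ± 0.15 (adjusted p = 0.213).

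**Figure D5:**
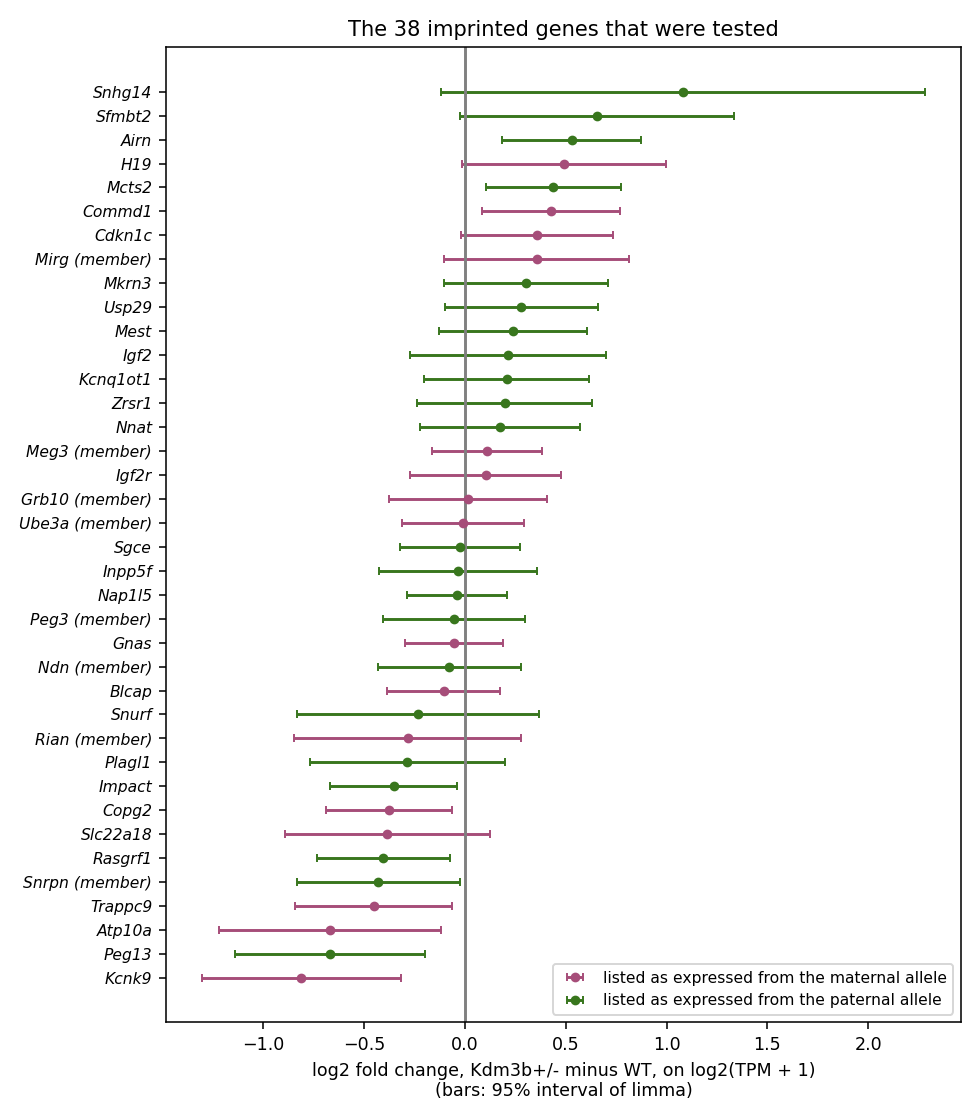
Log2 fold change, *Kdm3b*+/- minus WT on the log2(TPM + 1) scale, of the 38 imprinted genes that were tested, in order, with 95% intervals of limma; colour gives the allele listed as expressed. *Kcnk9* is lowest at -0.81 and *Snhg14*, whose interval is the widest, is highest at 1.08; none of the 38 was DEX.

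Of 16 factors that maintain imprints or silence chromatin, such as DNA methyltransferases and H3K9 methyltransferases, 14 were tested. By limma 0 were DEX, against 0.461% of all tested genes, and 0 had an unadjusted p under 0.05, against 17.0%. *Trim28*, the corepressor bound at imprinting control regions, was listed at 96.3 and 127 TPM in the WT mice and at 89.4 and 95.8 TPM in the *Kdm3b*+/- mice, with an adjusted p of 0.435. *Kdm1b*, a demethylase of H3K4, was at 4.88 and 5.66 TPM in the WT mice and at 3.74 and 4.29 TPM in the *Kdm3b*+/- mice, with an adjusted p of 0.381. *Smchd1*, a chromatin protein of imprinted clusters and the inactive X, was at 8.02 and 8.77 TPM in the WT mice and at 11.4 and 8.85 TPM in the *Kdm3b*+/- mice, with an adjusted p of 0.514. In the other 11 tested factors the groups overlapped, so 21.4% were without overlap, against 51.3% of all tested genes.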

How the data were processed

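RNA-seq of GCE tissue of 2 WT and 2 *Kdm3b*+/- mice was used, grouped by the genotype in the labels. The authors trimmed reads, aligned them with STAR and estimated gene abundance with StringTie; versions, genome build, strand setting and annotation are not given in the sources used here. The authors deposited, per library and gene, coverage (mean read depth, not normalized), FPKM (scaled to length and mapped fragments) and TPM (scaled to length and a total of 1000000). Coordinates are those of the tables, and 99.6% of identifiers lay on the chromosome that RefSeq gives for GRCm38. Read counts per gene were not recovered; aligned gigabases were taken from the ratio of coverage to FPKM.

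Entries sharing an identifier were summed. Genes averaging 1 TPM or more over the 4 libraries were tested on log2(TPM + 1) with limma version 3.58.1 (lmFit, eBayes with trend; R version 4.3.3, statmod version 1.5.0), with p-values adjusted by the Benjamini-Hochberg method over all genes. The study's own count model could not be run on TPM. DEX required an adjusted p under 0.05 and a fold over 1.2. Ratios within a library were compared by exact permutation. The fit was tested on simulated data. Gene models spread over several chromosomes or more than 5 Mb were left out of the locus counts. Tables and figures used Python version 3.11.15, pandas version 2.3.3, NumPy version 2.4.6, SciPy version 1.17.1 and Matplotlib version 3.10.9.

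The members, gene lists and tests were chosen with earlier results of these data known. All 10 members were named, and of the imprinted lists the DEX genes or else the 3 highest and 3 lowest log2 fold changes without overlap, of the maintenance factors likewise 2 each way, all tested models that overlap a member, and the 5 genes nearest to *Meg3*. Alternatives were a pseudocount of 0.1, FPKM, no filter, a higher filter (5 TPM), quantile normalization, median-ratio scaling, eBayes without trend, robust eBayes, a replicate block, a loess correction for length and GC content, both together, the highest entry per gene and each library left out.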

Additional observations from a re-analysis of the deposited data

How the results depend on the processing

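The count of DEX genes among the 8 tested members was 0 in the reported fit and under all 16 alternatives, with a lowest adjusted p of 0.0867, for *Snrpn* without WT mouse 1. Among all genes the DEX count was 63, and became 38 on FPKM, 37 with eBayes without trend, 1 with no filter on low TPM, 600 with the replicate block, 33 with the replicate block and the length and GC correction, and from 21 to 188 when each library was left out. Among the imprinted genes the count was 0, and became 1 with the replicate block (*Peg13*, adjusted p = 0.021) and ranged from 0 to 1 when each library was left out (*Snhg14* without WT mouse 1, log2 fold change 2.18, adjusted p = 0.00603). The number of members whose groups did not overlap was 2, and 4 on FPKM and with quantile normalization.

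Several small log2 fold changes changed sign. *Peg3* was at 0.00749 on FPKM, 0.0156 with median-ratio scaling and 0.0666 with quantile normalization, and *Ube3a* at 0.0544, 0.0634 and 0.0653. *Ndn* was at 0.00292 with the length and GC correction, with or without the replicate block, and AF357425 at 0.0306 with quantile normalization. When each library was left out in turn, the log2 fold change ranged from -0.68 to 0.11 for *Rian*, -0.18 to 0.0716 for *Peg3*, -0.30 to 0.15 for *Ndn*, -0.0174 to 7.31e-05 for *Ube3a*, -0.10 to 0.13 for *Grb10*, -0.73 to 0.27 for *Snurf*, -0.0143 to 2.18 for *Snhg14*, -0.32 to 0.17 for AF357425, -0.32 to 0.45 for AF357359 and -0.10 to 0.82 for Mir412. The log2 ratio of *Rian* to *Meg3* ranged from -0.87 to 0.00188 and that of *Mirg* to *Meg3* from -0.00282 to 0.57. The DQ267101 call was lost also with a pseudocount of 0.1 (-2.81, adjusted p = 0.0586), with no filter (adjusted p = 0.197) and with the replicate block and the length and GC correction (adjusted p = 0.0539), and *Ddc* passed with a mean TPM of at least 5, robust eBayes, the replicate block or without *Kdm3b*+/- mouse 2 (adjusted p from 0.000726 to 0.0405), and did not pass under the other 12 alternatives (adjusted p from 0.0589 to 0.284). Mir369 and Mir3072 passed with the replicate block (adjusted p = 0.026 and 0.0126), and Mir3072 also without *Kdm3b*+/- mouse 2 (adjusted p = 0.00224) but at 0.58 without *Kdm3b*+/- mouse 1 (adjusted p = 0.657). With the length and GC correction *Trappc9* was at -0.23, *Mcts2* at 0.21 and Mir377 at 0.10. The cause of these shifts was not tested.

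Same-numbered mice are different animals, and their deviations from the group means correlated at 0.121, so the numbers were not taken to pair them. The replicate block changed no call among the 8 members, where its lowest adjusted p was 0.111, for *Snrpn*. Leaving out a mouse leaves its genotype with a single library, whose spread is assumed to be that of the other group. Depth limits *Magel2*, *Dlk1* and the short gene models, which rest on few aligned bases.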
